A study of Mus musculus with 5 samples.

Results

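The promoters described here belong to genes that encode splicing factors, RNA helicases and translation initiation factors. They were chosen by gene symbol: cis contacts of baits on chromosomes 1 to 9 were kept where a symbol in the bait name began with Srsf, Snrp, Hnrnp, Ddx, Dhx, Sf3a, Sf3b, Prpf, Eif, Rbm, Lsm or Ints, apart from 2 genes that are not analysed here. This gave 90 of the 7674 baits with cis contacts on those chromosomes in the table with the original baits, from 69 genes, out of 8051 baits in that table. In the table with the extended baits it gave 134 of 11063 baits, from 103 genes. Together the tables held 105 such genes, 67 of them in each table. The rule works on names, so it also takes in a few genes of other function, such as Lsmem2, the eIF2 kinase genes Eif2ak1 and Eif2ak4, and the antiviral sensor genes Ddx58 and Ddx60.

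Contacts of promoters were measured by capture Hi-C, in which crosslinked and ligated chromatin fragments are enriched for chosen bait fragments, in sorted supporting cells of E13.5 mouse gonads. Sertoli cells, the supporting cells of the testis, carried the Sox9IRES-GFP reporter and gave 3 libraries, and pre-granulosa cells, those of the ovary, carried the Enh8-mCherry reporter and gave 2 libraries. Each library came from about 100000 sorted cells, and the chromatin was cut with DpnII. The design asks which promoter contacts the lineages share. Cell identity could not be checked here, because the tables hold contacts and no expression.

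Splicing removes introns from transcripts on the spliceosome, which is built from small nuclear ribonucleoproteins with a core of Sm proteins and from many helicases and auxiliary factors. SR proteins and heterogeneous nuclear ribonucleoproteins (hnRNPs) bind the transcript and steer the choice of splice sites. Translation begins when initiation factors bring the initiator tRNA and the small ribosomal subunit to the mRNA. These genes are needed in nearly every cell, and many have CpG-rich promoters.

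The promoters of 4 members that lead the results below are shown first, because they hold the 5 original baits with the largest excess of Sertoli over pre-granulosa calls. The sequences come from RefSeq on GRCm38.p6, the assembly that mm10 denotes, and run from 250 bases before to 50 bases after the annotated start on the strand of the gene, 5′ to 3′. Capitals mark matches to any of 5 motifs, searched on both strands: CCGGAAG (the core of ETS factor sites), TGCGCA (the core of NRF1 sites), AAGATGG (the core of YY1 sites), GGGCGG (the SP1 GC box) and TATAAA (the TATA box). All 4 genes lie on the minus strand. The windows are chr6:51469796-51470095 for Hnrnpa2b1, chr1:133610231-133610530 for Snrpe, chr9:110117567-110117866 for Dhx30 and chr7:133782736-133783035 for Dhx32. The window of Dhx30 starts from a site inside the extended bait bin but outside the original bait fragments.
Hnrnpa2b1: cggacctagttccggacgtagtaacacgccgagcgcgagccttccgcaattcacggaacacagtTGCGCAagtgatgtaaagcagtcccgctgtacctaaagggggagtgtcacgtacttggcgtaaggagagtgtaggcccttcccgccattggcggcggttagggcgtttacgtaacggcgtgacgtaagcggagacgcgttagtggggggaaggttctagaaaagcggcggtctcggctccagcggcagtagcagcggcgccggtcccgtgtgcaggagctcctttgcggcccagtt
Snrpe: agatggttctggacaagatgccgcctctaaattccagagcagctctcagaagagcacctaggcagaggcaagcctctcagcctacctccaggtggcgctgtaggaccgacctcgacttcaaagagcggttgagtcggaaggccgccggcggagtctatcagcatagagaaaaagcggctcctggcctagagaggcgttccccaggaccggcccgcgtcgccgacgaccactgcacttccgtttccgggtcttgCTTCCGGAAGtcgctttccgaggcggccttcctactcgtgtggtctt
Dhx30: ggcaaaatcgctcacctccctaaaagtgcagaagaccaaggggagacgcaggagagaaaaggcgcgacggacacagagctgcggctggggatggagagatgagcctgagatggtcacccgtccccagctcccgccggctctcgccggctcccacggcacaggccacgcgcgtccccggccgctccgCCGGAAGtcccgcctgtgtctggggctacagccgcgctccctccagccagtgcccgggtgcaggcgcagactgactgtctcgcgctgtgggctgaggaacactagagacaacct
Dhx32: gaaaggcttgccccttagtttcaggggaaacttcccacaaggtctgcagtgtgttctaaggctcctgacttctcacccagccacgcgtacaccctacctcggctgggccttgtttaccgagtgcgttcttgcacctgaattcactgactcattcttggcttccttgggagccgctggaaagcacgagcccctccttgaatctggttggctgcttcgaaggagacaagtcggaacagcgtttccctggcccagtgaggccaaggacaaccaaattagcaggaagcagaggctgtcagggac
Hnrnpa2b1 has 1 NRF1 match and Dhx30 has 1 ETS match. The Snrpe window has 2 ETS matches, 1 on each strand, that overlap. Dhx32 has none of the 5 motifs and the lowest CpG ratio of the 4, with 0.43 observed over expected CpG dinucleotides against 0.77 for Dhx30, 0.88 for Snrpe and 1.21 for Hnrnpa2b1.

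Member promoters as a group were rich in CpG and in the ETS core. RefSeq gave 106 windows, of 87 genes, whose start lies in a bait of the same member gene, and 7984 windows of 6632 genes over all baits. The median CpG ratio was 0.87 in member windows and 0.58 in all baited windows, and the median GC content was 61.3% and 57.0%. The ETS core was found in 34.0% of the member windows (95% Wilson interval 25.6 to 43.4) and 12.4% of all baited windows. Counted once per gene, it was found for 30 of 87 member genes, or 34.5%, and for 13.6% of the 6632 genes whose start lies in a bait. The SP1 GC box was found in 61.3% and 47.8% of windows, the NRF1 core in 17.9% and 10.02%, the YY1 core in 5.66% and 6.40%, and the TATA box in 5.66% and 12.0%. Overlapping matches of different motifs were each counted, and a match describes letters only.

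Each contact joins a bait and a bin of about 5 kb, and the tables give 1 CHiCAGO score per cell type. CHiCAGO scores rise as a read count exceeds what is expected at that distance. A score of 5 or more was taken as a call, and every listed contact reached 5 in 1 or both cell types. The tables hold no score per library, so no value below has a replicate error, no test of a difference between the cell types was possible, and the read depth is unknown. Intervals are 95% Wilson intervals, or order-statistic intervals for medians, and cover counting error only. They treat calls as independent, which calls are not. Shared contacts count in both cell types, and the 303 Sertoli calls of original member baits form 234 runs of touching bins. The intervals are therefore descriptions, also where a background is set beside them.

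Member promoters had more called contacts in Sertoli cells than in pre-granulosa cells, as baits in general did. The 90 original baits listed 378 contacts with 329 different bins. Of these, 303 (80.2%) were called in Sertoli cells, and the background over all 28991 listed contacts of chromosomes 1 to 9 was 80.2%. In pre-granulosa cells 171 (45.2%, interval 40.3 to 50.3) were called, against a background of 41.5%. Both cell types called 96 (25.4%, interval 21.3 to 30.0), against 21.7%. The Sertoli share equals the background, and the other backgrounds lie inside the members' intervals. Of all Sertoli calls of members 31.7% were shared, and of all pre-granulosa calls 56.1% were, against 27.0% and 52.3% over all baits. Sertoli calls outnumbered pre-granulosa calls by a ratio of 1.77 (interval 1.47 to 2.14) for members and 1.93 for all baits.

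Counted by bait, 58 of the 90 members (64.4%) had more Sertoli calls, with a background of 65.2%. Another 20 (22.2%) had more pre-granulosa calls, with a background of 22.0%, and 12 (13.3%) had equal numbers, with a background of 12.7%. The median member bait listed 3 contacts, against 2 over all baits, and 25 member baits (27.8%, background 35.2%) listed 1 contact. The extended member baits listed 678 contacts. Of these, 536 (79.1%, background 78.7%) were called in Sertoli cells, 383 (56.5%, background 55.9%) in pre-granulosa cells and 241 (35.5%, background 34.6%) in both. The ratio there was 1.40 for members and 1.41 for all baits. More Sertoli calls were held by 74 extended baits (55.2%, background 53.6%) and more pre-granulosa calls by 35 (26.1%, background 26.4%).

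**Figure D1:**
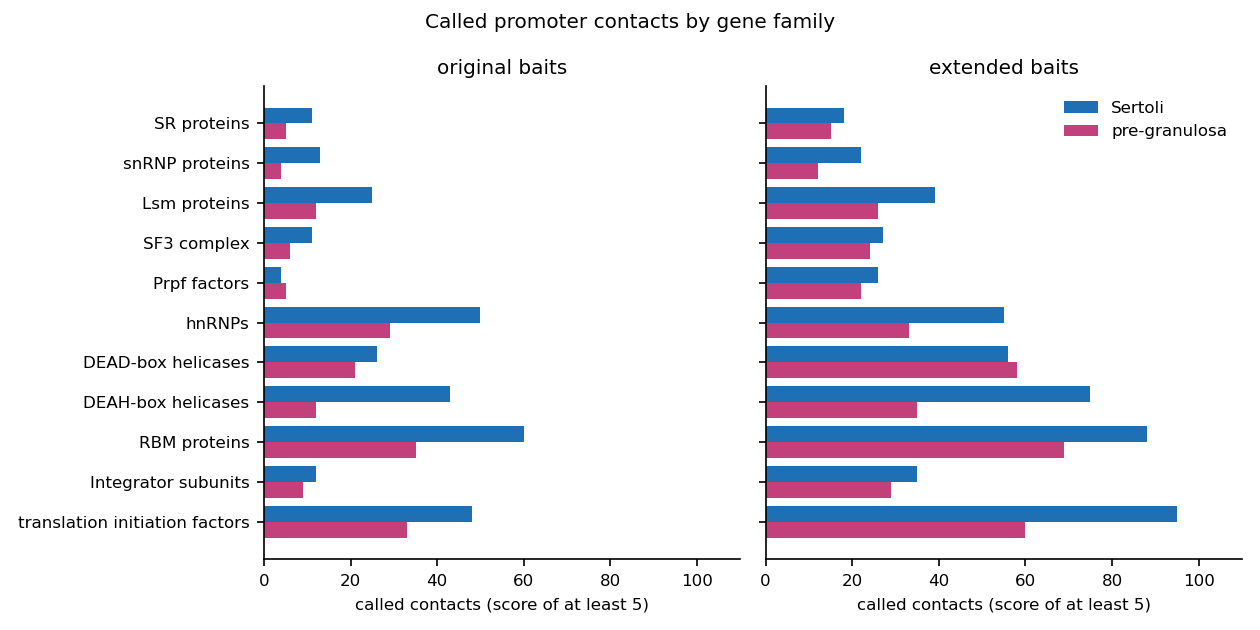
Number of contacts called at a score of at least 5 (horizontal axis) in Sertoli cells (blue) and pre-granulosa cells (magenta) for the baits of each gene family, with the original baits on the left and the extended baits on the right. Among original baits the DEAH-box helicases show the widest gap in ratio, 43 against 12 calls, and the Prpf factors have 4 Sertoli and 5 pre-granulosa calls, an order that turns to 26 and 22 among the extended baits of 5 Prpf genes.

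The families varied in size and in their counts of calls, and the interval of the ratio held the 1.93 of all baits for each of the 11 families of original baits. Among core spliceosome members, Snrpe had 13 Sertoli and 4 pre-granulosa calls, the 3 genes of the SF3 complex had 11 and 6, and the 3 Prpf genes, whose products belong to the U4/U6.U5 tri-snRNP, had 4 and 5. The extended baits, with 5 Prpf genes, had 26 and 22. The 2 SR protein genes had 11 and 5, the 4 genes named Lsm 25 and 12, of which Lsmem2 gave 3 and 0, and the 5 hnRNP genes 50 and 29. The 5 DEAH-box helicase genes had 43 and 12 calls, a ratio of 3.58 (interval 1.91 to 6.72) whose lower bound lies just under the 1.93 of all baits. The 11 DEAD-box genes had 26 and 21, the 15 RBM genes 60 and 35, the 5 Integrator genes 12 and 9, and the 15 genes named Eif 48 and 33. Among extended baits the DEAH-box genes had 75 and 35 calls, a ratio of 2.14 (interval 1.44 to 3.19). The bin that Dhx30 shares with Smarcc1 held 44 and 18 of these calls. The DEAD-box genes, then 19, had 56 and 58, a ratio of 0.97 (0.67 to 1.39). These intervals leave out the 1.41 of all extended baits, on opposite sides. Genes of the same processes under other names were kept on separate lists. These lists were not limited by chromosome. Of 79 other splicing and mRNA processing genes, 25 had an original bait with cis contacts on chromosomes 1 to 9. They had 136 Sertoli and 51 pre-granulosa calls, a ratio of 2.67 (interval 1.94 to 3.67) whose lower bound lies just above the 1.93 of all baits. Of 33 other translation genes, 4 had such a bait, with 15 and 4 calls, a ratio of 3.75 (1.31 to 10.8).

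Long contacts made up a larger share of member calls than of calls in general, and among the original baits the Sertoli share was at the background without 5 baits. Calls at 200 kb or more made up 31 of the 303 Sertoli calls (10.2%, interval 7.30 to 14.2), against 6.99% over all baits. They made up 16 of the 171 pre-granulosa calls (9.36%, interval 5.84 to 14.7), against 5.06%. Without the 5 baits with the most listed contacts, which belong to Hnrnpa2b1, Rbm5, Lsm14b and Snrpe, the shares were 16 of 230 (6.96%) and 10 of 136 (7.35%, 4.04 to 13.0), with both backgrounds inside the intervals. That alternative was added after the data were seen. Among extended baits the shares were 54 of 536 (10.07%, 7.80 to 12.9) in Sertoli cells, against 6.17%, and 35 of 383 (9.14%, 6.64 to 12.4) in pre-granulosa cells, against 5.51%. Without the 5 extended baits with the most contacts, they were 11.9% (9.13 to 15.3) and 10.4% (7.51 to 14.3). The median distance was 54.8 kb (interval 41.3 to 64.1) for Sertoli calls, against 42.6 kb over all baits, and 30.5 kb (19.5 to 46.4) for pre-granulosa calls, against 26.0 kb, so both backgrounds lie inside the intervals. For the extended baits the medians were 59.6 kb (53.1 to 66.1) against 47.9 kb in Sertoli cells and 49.0 kb (42.2 to 58.3) against 37.9 kb in pre-granulosa cells, and there the intervals lie above both backgrounds.

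**Figure D2:**
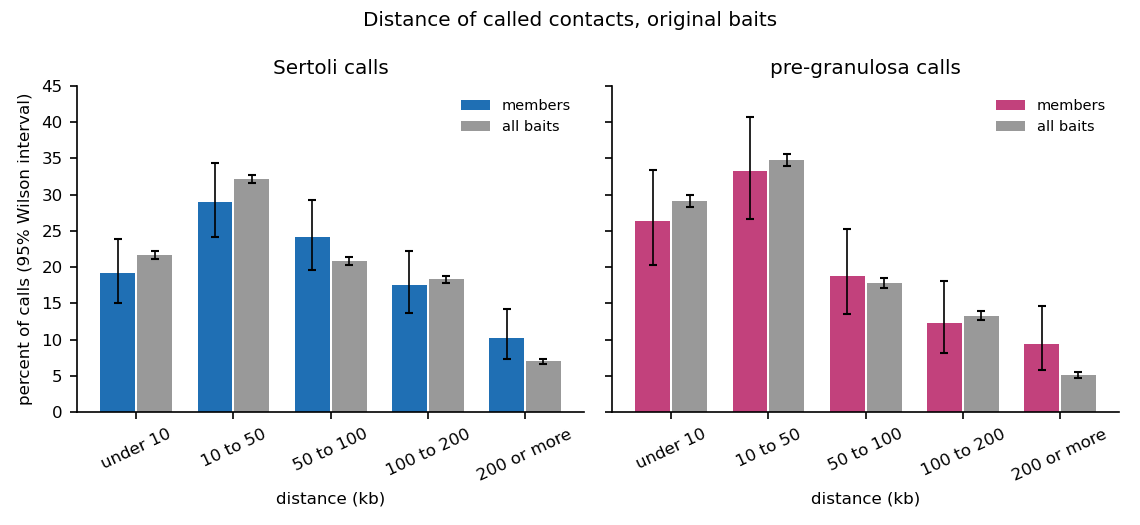
Percent of called contacts (vertical axis, bars with 95% Wilson intervals for counting error) in 5 bands of distance between bait and bin in kb (horizontal axis), for member baits (coloured) and all baits of chromosomes 1 to 9 (grey), original baits. The member interval clears the grey bar in both panels at 200 kb or more, where members hold 10.2% of Sertoli calls and 9.36% of pre-granulosa calls against 6.99% and 5.06%. Without the 5 baits with the most contacts the member shares are 6.96% and 7.35%, and the intervals hold the grey bars.

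For baits whose genes lie on 1 strand, 58.9% of the member Sertoli calls (interval 53.0 to 64.5) lay downstream of the start, against 51.4% over all baits. Without the 5 baits with the most contacts it was 56.9% (50.2 to 63.5). The pre-granulosa share was 51.9% (44.1 to 59.6), against 51.7%. Bins inside the gene of the bait held 25.9% of the member Sertoli calls, against 30.5% over all baits, and 32.5% without those 5 baits.

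Hnrnpa2b1 encodes hnRNP A2/B1, an RNA-binding protein of splicing and RNA transport, and among the original baits its 2 baits listed the most contacts of any member gene, 35. Hnrnpa2b1-205 (chromosome 6, 51466513 to 51466879) listed 20 contacts, all called in Sertoli cells, and 8 of them were also called in pre-granulosa cells. Hnrnpa2b1-201 (51468707 to 51470353), the bait that holds the printed promoter, had 14 Sertoli and 7 pre-granulosa calls. The baits share 11 of their 24 bins. The highest Sertoli score of an original member bait was that of Hnrnpa2b1-205 with the neighbouring bin at -3.46 kb, 32.7 in Sertoli and 18.4 in pre-granulosa cells. From Hnrnpa2b1-201 the same bin scored 19.8 and 15.7. Distances are signed towards higher coordinates, so on this minus strand gene a negative distance points downstream.

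A distant bin was called by both Hnrnpa2b1 baits in both cell types. This bin, from 51380737 to 51385818, overlaps no protein-coding gene of the RefSeq table. It scored 22.8 in Sertoli and 10.1 in pre-granulosa cells from Hnrnpa2b1-205, at -83.4 kb. From Hnrnpa2b1-201 it scored 20.3 and 16.4. The score is thus higher in Sertoli cells from both baits, but by unequal amounts. The next bin, from 51375253 to 51380736, goes both ways: it scored 11.5 in Sertoli and 13.8 in pre-granulosa cells from the first bait, and 15.3 and 4.79 from the second. The bins on either side of this pair, from 51370186 to 51375252 and from 51385819 to 51390856, were called by both baits in Sertoli cells alone, with pre-granulosa scores from 2.47 to 4.43. Farther out, the bin from 51209460 to 51214829 scored 8.52 and 5.23 from Hnrnpa2b1-205 and 16.8 and 6.07 from Hnrnpa2b1-201, at more than 250 kb and called in both cell types. On the other side, a bin from 51504165 to 51509642 scored 9.30 and 8.999 from the first bait and 10.4 and 6.92 from the second. The contact of Hnrnpa2b1-201 with the bin from 51219960 to 51224982 was among the 5 largest differences towards Sertoli cells of the original baits, at 7.29 and 0, and Hnrnpa2b1-205 scored 8.46 and 1.60 there.

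Snrpe, which encodes the Sm core protein SmE, contacted a block of bins far from its promoter. Snrpe-204 (chromosome 1, 133609963 to 133610722) had 14 listed contacts, and 13 of them lay between -296.5 and -178 kb, over Golt1a, Ren1, Etnk2 and Sox13. The peak was the bin from 133378250 to 133383648, over the ends of Etnk2, an ethanolamine kinase gene, and Sox13, a transcription factor gene, with scores of 27.8 in Sertoli and 17.0 in pre-granulosa cells at -229 kb. The bin beside it, from 133383649 to 133388931, scored 26.4 and 7.93, and the bin on the other side, from 133373052 to 133378249, scored 17.0 and 5.90. These 3 bins were called in both cell types. The flanking bins of the block were called in Sertoli cells, with pre-granulosa scores from 0.13 to 3.91, except the farthest, which scored 4.01 in Sertoli and 5.69 in pre-granulosa cells. The extended baits name promoter bins in the block: Snrpe-204 scored 20.7 and 8.51 with Sox13-203, 17.1 and 8.69 with the Etnk2 promoter, 9.28 and 2.99 with Kiss1-201, the kisspeptin gene, and 7.07 and 1.22 with Ren1-202, the renin gene. A second member of the Sm and U2 snRNP group, Snrpa1, which encodes a protein of the U2 snRNP, had a far partner too. Snrpa1-206 contacted the promoter bin of Tm2d3 at -365 kb with 39.1 in Sertoli and 23.8 in pre-granulosa cells.

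**Figure D3:**
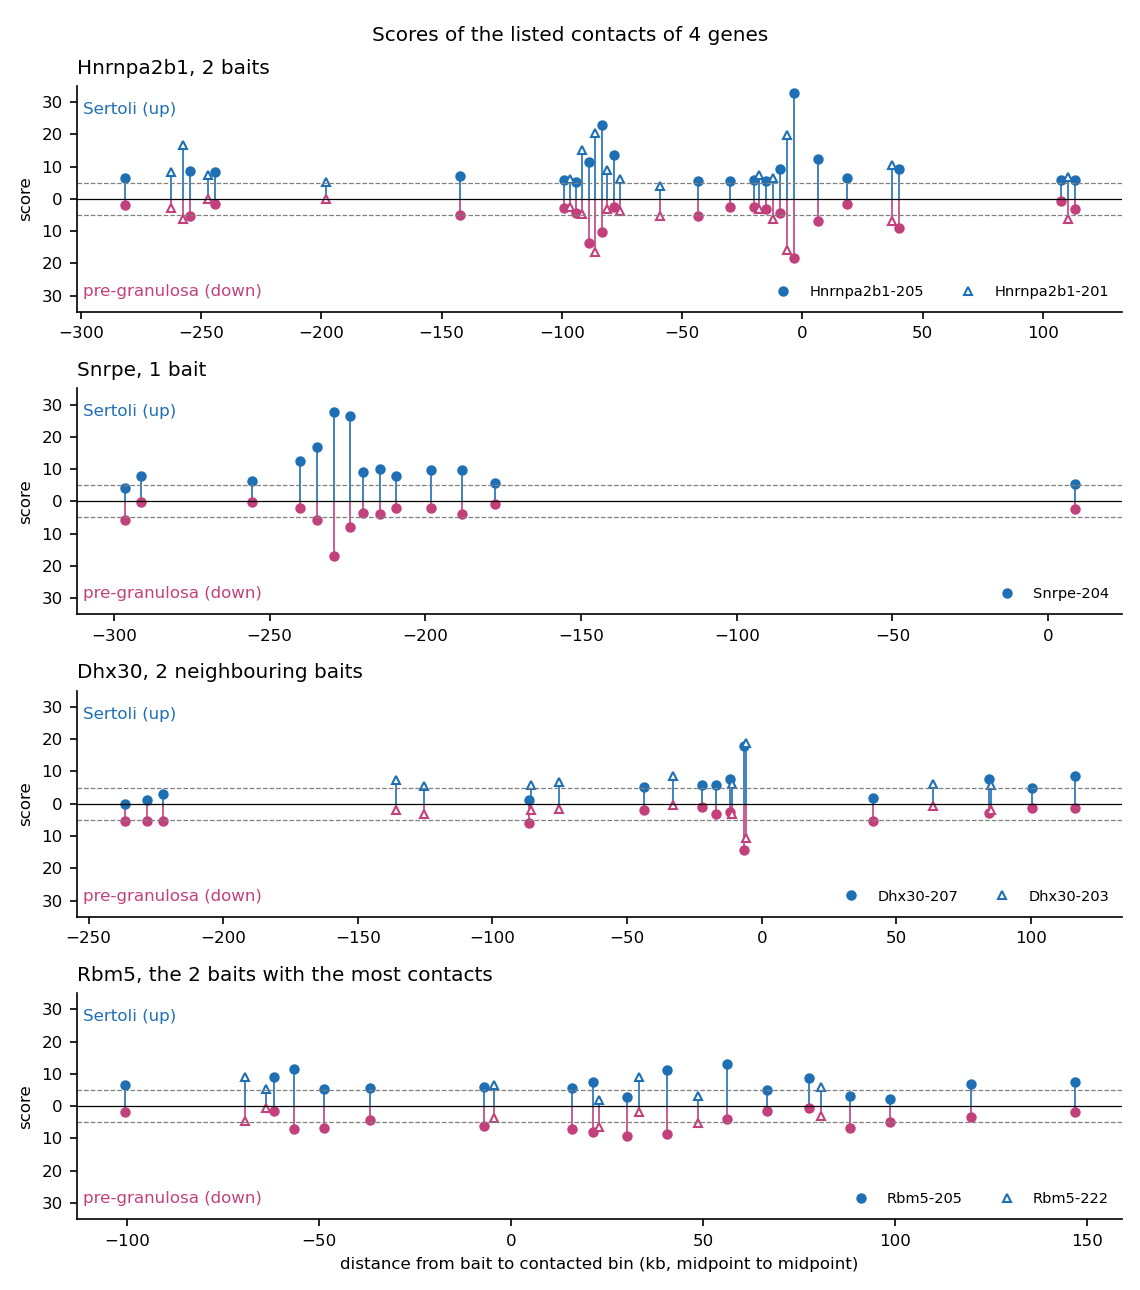
CHiCAGO scores of every listed contact (vertical axis, Sertoli upwards in blue, pre-granulosa downwards in magenta, dashed lines at 5) against signed distance from the bait in kb (horizontal axis) for Hnrnpa2b1, Snrpe, Dhx30 and Rbm5, with filled circles for the bait with the most listed contacts and open triangles for a second bait of the gene. The distant peaks of Hnrnpa2b1 near -83.4 kb and of Snrpe near -229 kb stand on both sides of the axis, and most of the smaller contacts pass 5 on 1 side only.

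Other spliceosome and SR protein promoters had fewer contacts than Snrpe from their original baits, and some extended baits reached far. Sf3b1-201, for the branch point binding subunit of the U2 snRNP, had 5 Sertoli and 3 pre-granulosa calls, with the highest Sertoli score of 10.05 against 7.59 in pre-granulosa cells at 18.9 kb and the highest pre-granulosa score of 8.23 against 3.23 at 13.51 kb. Srsf9-204 had 7 and 2 calls. Its bin at -37.4 kb over Coq5 scored 11.3 in Sertoli and 4.16 in pre-granulosa cells, and the bin at 7.76 kb over Gatc scored 9.45 and 10.3. Srsf11-217 had 3 calls in each cell type. Its bin at -12.1 kb scored 18.2 and 5.52, and from the other bait, Srsf11-202, the same bin scored 5.82 and 4.57. Prpf3-201 had 1 Sertoli and 3 pre-granulosa calls at different bins, the highest at -85.8 kb over Rprd2 with 1.18 in Sertoli and 6.85 in pre-granulosa cells. The extended bait of Srsf11-217 contacted the promoter bin of Zranb2-204 at an unsigned distance of 478.6 kb, with 12.8 in Sertoli and 5.92 in pre-granulosa cells. The extended bin that Prpf6 shares with Zfp512b scored 18.1 and 2.11 with Zgpat-206, which lies 212 kb away towards lower coordinates.

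Lsm14b, which encodes a protein of cytoplasmic mRNA storage granules, contacted the gene of the transcription factor subunit Taf4. Lsm14b-202 (chromosome 2, 180026146 to 180026780) had 12 Sertoli and 7 pre-granulosa calls, 4 of them shared. Within Taf4 the cell types differed from bin to bin. The bin from 179926765 to 179933216 scored 8.63 in Sertoli and 0.10 in pre-granulosa cells. The bin just beyond it, from 179920933 to 179926764, scored 6.46 and 12.1, and a bin nearer the promoter, from 179938424 to 179943749, scored 3.40 and 10.4. From the second bait, Lsm14b-201, that last bin scored 6.62 in Sertoli and 0.50 in pre-granulosa cells, the opposite order.

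Among the hnRNP genes, Hnrnpl had strong contacts in both cell types. Hnrnpl-201 scored 27.6 in Sertoli and 16.2 in pre-granulosa cells at 9.33 kb, 14.9 and 8.33 at 47.1 kb and 13.4 and 12.2 at 55.99 kb over Lgals7, a galectin gene. The extended bait of Hnrnpl-211 scored 30.9 and 30.7 with the Lgals7 promoter at 56.2 kb. Hnrnpu-201 had 4 Sertoli and 5 pre-granulosa calls, of which 1 was shared, at 105.7 kb over Efcab2 with 5.12 and 6.55. Hnrnpr-209 scored 0.75 in Sertoli and 5.53 in pre-granulosa cells at 19.3 kb, among the 5 largest differences of the original baits towards pre-granulosa cells.

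The DEAH-box helicase genes had the largest Sertoli excess of any family, and 36 of their 43 Sertoli calls came from Dhx30, with 24, and Dhx32, with 12. Dhx30 encodes a helicase of mitochondrial RNA granules. Dhx30-203 (chromosome 9, 110114555 to 110115108) had 9 Sertoli calls and 1 pre-granulosa call. Dhx30-207, the next bait on the chromosome (110115229 to 110115797), had 8 Sertoli and 6 pre-granulosa calls, of which 1 was shared. Their shared contact, the bin from 110106489 to 110111620, scored 18.7 in Sertoli and 10.8 in pre-granulosa cells from the first bait cells from the first bait and 17.96 and 14.3 from the second. The bin over Map4 from 110026418 to 110031751 was called in opposite cell types by these neighbouring fragments: 5.86 in Sertoli and 1.82 in pre-granulosa cells from Dhx30-203, and 1.09 and 5.96 from Dhx30-207. Dhx30-207 also held a contact at -237 kb over Cdc25a, a cell cycle phosphatase gene, at 5.24 in pre-granulosa cells with 0 listed in Sertoli cells. Dhx32-202 had 7 Sertoli calls and 1 shared pre-granulosa call. Its highest score was 13.8 against 4.16 in the bin from 133671515 to 133676992 of chromosome 7, at -108 kb over Edrf1 and Mmp21, and its shared bin at -70.0 kb scored 5.43 and 7.63. Dhx35-201 had 4 Sertoli calls inside its own gene, at 6.23 to 9.76, with pre-granulosa scores from 1.07 to 1.51. Dhx37-202, for a ribosome assembly helicase, scored 7.28 and 5.05 at -7.38 kb and 6.35 and 0.90 at 13.6 kb.

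The DEAD-box genes had near equal numbers of calls. Ddx59-201 had 3 Sertoli and 4 pre-granulosa calls, with 3.14 in Sertoli and 10.5 in pre-granulosa cells at 9.84 kb inside its own gene and 6.98 and 6.89 at -72.0 kb over Camsap2. Ddx55-201 had 3 calls in each cell type and 1 shared. At -114 kb, in the bin from 124437131 to 124439757 of chromosome 5, it scored 0.19 in Sertoli and 7.22 in pre-granulosa cells, the largest difference towards pre-granulosa cells among the original member baits. The touching bin at -118 kb scored 5.24 and 7.46, and a bin at -141 kb over Sbno1 scored 6.14 in Sertoli cells with 0 listed in pre-granulosa cells. Ddx20-201, for a component of the SMN complex that assembles snRNPs, scored 5.60 and 11.4 at 212 kb over Tmigd3. Ddx25-201 listed 5 contacts, as many as Ddx55-201 and Ddx59-201, and had 3 calls in each cell type. Ddx60-205 had 1 Sertoli and 3 pre-granulosa calls, among the 5 largest excesses towards pre-granulosa cells. Its contact at -394 kb over Palld, among the 5 longest, scored 2.84 and 5.75. The extended bait of Ddx60-205 listed 1 contact, at 5.15 and 4.34.

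Contacts of the RBM genes were led by Rbm5, a splicing regulator gene that lies beside Rbm6. Rbm5-205 (chromosome 9, 107743886 to 107744751) had 14 Sertoli and 9 pre-granulosa calls, 6 of them shared, most of them over Sema3f on 1 side and across Rbm5 and Rbm6 on the other. The bin from 107685265 to 107690621 over Sema3f scored 11.6 and 7.14, and the bin from 107782184 to 107787789 in Rbm6 scored 11.1 and 8.57. The bin from 107797918 to 107802982 scored 13.2 in Sertoli and 3.97 in pre-granulosa cells from Rbm5-205, but 3.29 and 5.17 from Rbm5-222. Rbm39-217, for a splicing factor related to U2AF, had 2 Sertoli and 5 pre-granulosa calls, an excess in pre-granulosa cells that only Eif3f-201 equalled among the original member baits. Its bin at -6.28 kb scored 12.1 in Sertoli and 20.3 in pre-granulosa cells, and the bin at -32.7 kb, which holds the start of Romo1, scored 1.30 and 9.55. From Rbm39-220 the same bins scored 9.31 and 8.50, and 5.75 and 6.10. Rbm15b-201, for a subunit of the mRNA methylation complex, had 2 contacts, at -206 kb over Tex264 with 7.65 and at 379 kb over Mapkapk3 with 5.58 in Sertoli cells, and pre-granulosa cells had 0 at both. No other bait listed the Mapkapk3 bin, and the Tex264 bin was above 0 for another bait. The farthest contact of an original member bait was that of Rbm46-202, from a gene known for its role in germ cells, with a bin over Map9 at -495 kb, at 6.16 in Sertoli and 4.21 in pre-granulosa cells. Its extended bait scored 7.99 in pre-granulosa cells with the bin of Map9-203 at -508 kb, a bin at 0 in Sertoli cells for each bait that listed it. Rbmxl2-201, of a testis-expressed relative of Rbmx, had 3 far contacts, from 315.7 to 379 kb, and the 1 called in both cell types lay at 321 kb over Syt9 with 8.12 and 5.78.

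Integrator is a complex that processes small nuclear RNA transcripts and ends transcription early at many genes. Ints3-202 had 6 Sertoli and 2 pre-granulosa calls, with 11.6 and 6.68 at 14.3 kb and 10.6 and 1.35 at -11.8 kb inside its own gene. Ints13-207 scored 0.49 in Sertoli and 5.91 in pre-granulosa cells at -10.6 kb. Its best matching bin in the extended table scored 5.01 and 10.8, a call in both cell types. Ints4-201 scored 11.3 and 5.15 at -53.5 kb, and its extended bait scored 23.9 and 17.9 with the promoter bin of Kctd14. The farthest contact of the extended member baits was that of Ints14-202 with the bin of Dis3l at -624 kb, at 4.05 in Sertoli and 6.28 in pre-granulosa cells. The extended bait of Ints1-201 had 5 Sertoli calls, up to 12.7, and all 5 contacts were listed at 0 in pre-granulosa cells. Of their bins, 3 were listed by no other bait, and the other 2, which include the highest, were above 0 in pre-granulosa cells for another bait.

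Promoters of initiation factor genes were contacted within their own genes and at distances over 100 kb. eIF2B is the exchange factor that recharges eIF2 with GTP. Eif2b3-201, for its gamma subunit (chromosome 4, 117021965 to 117022201), had 8 calls in each cell type and 4 shared. It scored 12.1 in Sertoli and 8.98 in pre-granulosa cells at 13.7 kb inside its own gene, and 8.80 and 0.20 at 124.7 kb. Other contacts of this bait were higher in pre-granulosa cells, such as 3.39 and 6.14 at 97.3 kb. Eif2d-203, for a factor that recycles ribosomes and can deliver initiator tRNA, had 10 Sertoli and 5 pre-granulosa calls, with 11.6 and 0.84 at 105.9 kb over Ikbke and 9.83 and 7.58 at -27.9 kb. Eif2b4, for the delta subunit, had its strongest contacts with the extended bait bin that it shares with Snx17. That bin scored 32.1 in Sertoli and 33.2 in pre-granulosa cells with the promoter of Gtf3c2 at -10.6 kb, and 29.0 and 33.0 with that of Zfp513 at 11.7 kb.

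The eIF3 complex binds the small ribosomal subunit. Eif3b-203 had 4 Sertoli calls and 0 pre-granulosa calls. The contact at 100.9 kb, in the bin from 140538058 to 140543758 of chromosome 5, scored 10.97 in Sertoli and 0.09 in pre-granulosa cells, the largest difference towards Sertoli cells among the original member baits, and the extended bait scored 9.70 and 0 there. Eif3f-201 had 0 Sertoli and 3 pre-granulosa calls between -135.6 and -114.7 kb, at 2.43, 4.96 and 3.54 in Sertoli cells and 5.07, 6.86 and 8.80 in pre-granulosa cells. The middle contact lay just under the threshold in Sertoli cells. Its extended bait, shared with Nlrp10, had 4 Sertoli calls and 3 pre-granulosa calls, all 3 of them shared, with 5.60 and 17.1 at -117.7 kb. The extended bait of Eif3c-201 had 1 Sertoli call and 6 pre-granulosa calls, and its shared contact with the Coro1a promoter at 140.2 kb scored 9.45 and 15.2. Among genes of the eIF4G family of scaffolds, Eif4g2-214 scored 20.4 in Sertoli and 11.2 in pre-granulosa cells at -4.12 kb, and Eif4g3-214 had 6 Sertoli and 3 pre-granulosa calls, reaching 104 kb within its own gene at 8.32 and 5.18.

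With the extended baits, both ends of a contact can be promoter bins. Of the member calls, 259 of 536 in Sertoli cells (48.3%, interval 44.1 to 52.5) and 212 of 383 in pre-granulosa cells (55.4%, 50.3 to 60.3) joined another promoter bin, against 55.2% and 60.96% over all baits. Only 27 pairs joined bins of member genes, and 22 of these joined bins of the same gene. The highest of these was Ddx18, a ribosome biogenesis helicase gene, whose bins at 10.8 kb from each other scored 6.02 in Sertoli and 9.40 in pre-granulosa cells from one side and 12.7 and 19.5 from the other. The other 5 linked neighbours: Ddx19a with Ddx19b, Sf3b3 with each of them, and Rbm6 with 2 bins of Rbm5. Ddx19a-201 and Ddx19b, for helicases of mRNA export, scored 10.5 in Sertoli and 8.76 in pre-granulosa cells at 32.6 kb. The bin of Sf3b3, which it shares with Cog4, and that of Ddx19b scored 1.53 and 5.89 at 183.8 kb, and 1.48 and 6.36 from the other side. Of the 27 pairs, 18 were called in both cell types, 6 in Sertoli cells alone and 3 in pre-granulosa cells alone. Over all extended baits 34.6% of listed contacts were called in both, but a pair here takes a call from either side and most are close. The matching share over all promoter pairs was not computed. Among the 6, the Ints1 pair, at 5.09 and 0, rests on a bin listed at 0 in pre-granulosa cells by its only bait.

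Calls near the threshold limit the comparison of the cell types. Of the 207 member contacts called in Sertoli cells alone, 34.8% (28.6 to 41.5) scored 3 or more in pre-granulosa cells, and 20.8% (15.8 to 26.8) scored under 1. Of the 75 called in pre-granulosa cells alone, 40.0% (29.7 to 51.3) scored 3 or more in Sertoli cells, and 5.33% (2.09 to 12.9) scored under 1. Over all baits these shares were 33.9%, 23.1%, 48.3% and 9.71%. Baits of the same gene give a second view of the same bin. In 45 pairs of member contacts, 2 baits of a gene listed the same bin, and in 22 of these pairs (48.9%, interval 34.96 to 63.0) both baits gave the same calls. In 17 the call differed in 1 cell type, and in 6 (13.3%, 6.26 to 26.2) one bait called the bin in Sertoli cells alone and the other in pre-granulosa cells alone. Over all genes with several baits, 48.0% of 4029 such pairs gave the same calls and 13.8% gave opposite calls. The baits share libraries, and a bin enters only where each bait reached 5 in a cell type.

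**Figure D4:**
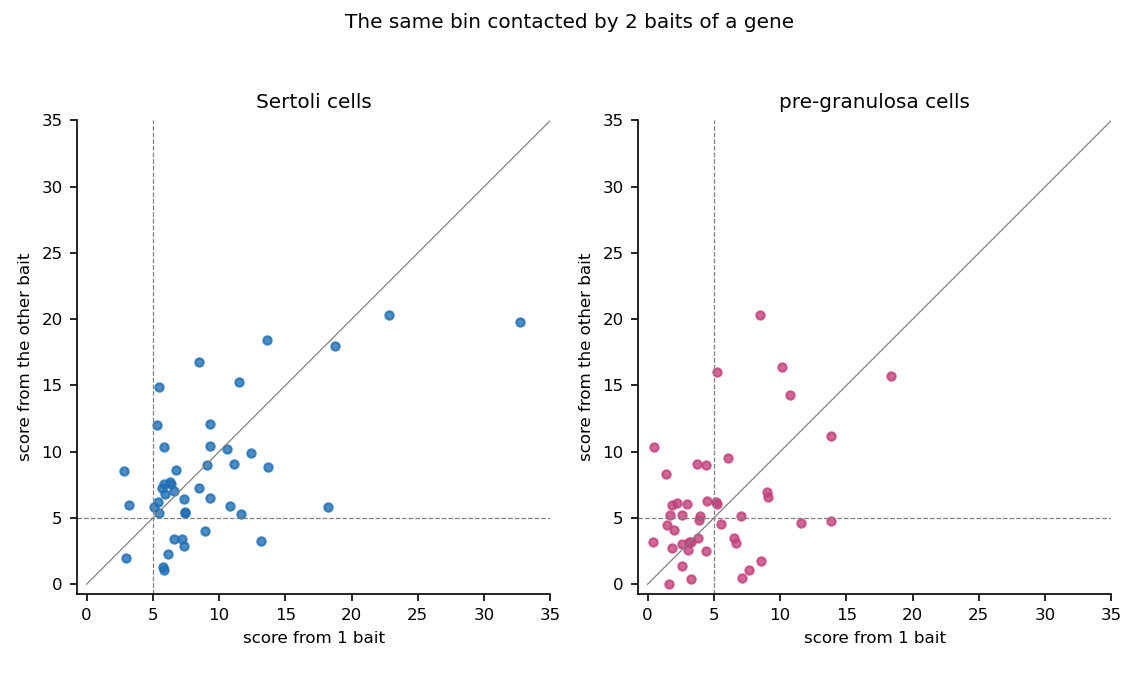
Scores of the same bin from 2 baits of a member gene (horizontal and vertical axes), for 45 pairs of contacts in Sertoli cells (left) and pre-granulosa cells (right), with dashed lines at the calling score of 5 and a line of equality. Bins such as the Hnrnpa2b1 peak, at 22.8 and 20.3 in Sertoli cells, pass 5 from both baits, while 6 pairs were called in opposite cell types.

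Bins listed at 0 need a caution that touches several members. Among the original baits, 12 Sertoli calls of members (3.96%, interval 2.28 to 6.79) were listed at 0 in pre-granulosa cells, against 5.23% over all baits, at distances from 117 to 379 kb. For 6 of these bins no other bait listed a value. Among the extended baits, 23 Sertoli calls of members (4.29%) were listed at 0 in pre-granulosa cells, against 3.02% over all baits. In the other direction, 8 pre-granulosa calls (2.09%) were listed at 0 in Sertoli cells, against 1.63%. The bin of Cyb561d2 and Nprl2, a partner of Lsmem2-202, was at 0 in pre-granulosa cells in all 12 listings. In the extended table, 3 member bait bins were at 0 in Sertoli cells every time another bait listed them. They are the bin of Eif2b4 and Snx17 (chromosome 5, 31188048 to 31193833), listed 15 times, the bin of Dhx30 and Smarcc1 (chromosome 9, 110114205 to 110119356), listed 12 times, and the bin of Ints13 and Fgfr1op2 (chromosome 6, 146573551 to 146580260), listed 3 times. As baits, the same bins had 16, 44 and 9 Sertoli calls. Among all 3778 bait bins of chromosomes 1 to 9 listed at least 3 times as other ends, 11 were at 0 in Sertoli cells each time, with 104 listings, and the 3 member bins hold 30 of those listings. In pre-granulosa cells 6 of the 3778 were at 0 each time, with 45 listings, and 0 of these were member bins.

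The same pair of bins can therefore be called in both cell types or in pre-granulosa cells alone, depending on which end is the bait. With Eif2b4 as the bait its contact with Gtf3c2-201 scored 32.1 in Sertoli and 33.2 in pre-granulosa cells. With Gtf3c2-201 as the bait it was listed at 0 in Sertoli and 33.3 in pre-granulosa cells. Dhx30-201 listed the Dhx30 and Smarcc1 bin at 0 in Sertoli and 15.8 in pre-granulosa cells, and from that bin the contact scored 11.4 and 5.80. The Ints13-207 bin listed the bin of Ints13-203 at 0 and 12.4, and the reverse contact scored 16.3 and 6.47.

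Of 186 Sertoli calls of members with a promoter bin that listed the contact back, 148 (79.6%, interval 73.2 to 84.7) were called from the other side too, against 92.5% over all baits. Without the bins listed at 0 for all baits, 148 of 166 (89.2%, 83.5 to 93.0) were, against 92.8%. In pre-granulosa cells 159 of 170 (93.5%, 88.8 to 96.3) were called from both sides, against 91.1%. What puts these bins at 0 was not tested.

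**Figure D5:**
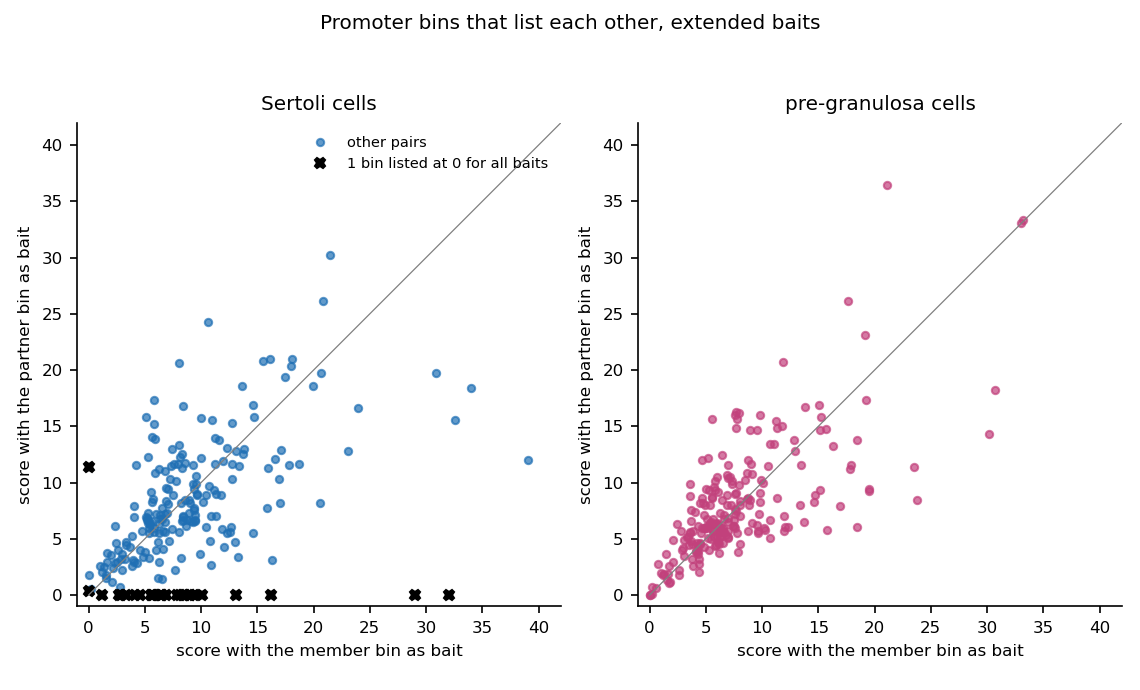
Scores of 220 pairs of promoter bins that list each other in the table with the extended baits, with the member bin as bait (horizontal axis) and with the partner bin as bait (vertical axis), in Sertoli cells (left) and pre-granulosa cells (right). Black crosses mark 27 pairs in which 1 bin is at 0 in Sertoli cells for all baits that list it, and they lie along the axes of the left panel, while the right panel has none.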

How the data were processed

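The deposited data were 2 tables of contacts, with original and with extended baits, in which each row gives 1 CHiCAGO score for Sertoli and 1 for pre-granulosa cells. Per the file headers there is no column per library, and how the authors combined the libraries is not given in the sources used here. The build is mm10, per the submitters' processing notes. Cis contacts of chromosomes 1 to 9 were kept. A call was a score of at least 5, and a shared call had the same bait and bin at 5 or more in both cell types. With 1 score per cell type, values were described by counts, medians and 95% intervals, without tests. The depth is unknown. Scores were compared on the inverse hyperbolic sine scale to rank differences. Over the original baits, the text names the 5 baits with the most contacts, the 5 with the largest excess in each cell type, the 10 highest scores, the 5 largest differences each way (leaving out bins at 0 for all baits in that cell type), the 5 longest contacts and the leading bait of each family, with partners and reverse contacts that bear on them, chosen after their values were seen. Some contacts of Eif2b3 are not reported here. Members, gene lists and motifs were chosen with earlier results of these data known. Python 3.11.15 with pandas 2.3.3 and SciPy 1.17.1 was used, and the counting code was tested on simulated data. Gene spans and promoters came from RefSeq on GRCm38.p6, where all 105 genes matched. Alternatives were a score of 7, the extended baits, leaving out bins at 0, a distance of at least 10 kb, baits named for members alone, and touching bins as shared.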

Additional observations from a re-analysis of the deposited data

How the results depend on the processing

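Replicate error could not be measured, since the tables give no score per library. No paired analysis was possible because the scores carry no replicate number, and no library could be left out for the same reason. Read depth, which limits the scores, is unknown. Of 62 recomputed counts, shares and medians, 43 stayed within 1.5 times (counts) or within the 95% interval (other values), and 19 moved as follows. At a score of at least 7 there were 133 Sertoli and 62 pre-granulosa calls, a ratio of 2.15, a pre-granulosa median of 16.5 kb, 11 baits with more pre-granulosa calls, and promoter shares of 56.8% and 62.3%. With the extended baits there were 536 and 383 calls, a ratio of 1.40, 44.96% of Sertoli calls shared, a pre-granulosa median of 49.0 kb and 35 baits with more pre-granulosa calls. With contacts of at least 10 kb only, the shared percents were 24.5 and 47.6 and the medians 68.9 and 57.8 kb. With touching bins counted as shared, the percents were 45.5 and 67.8. A higher threshold or a minimum distance leaves fewer contacts by construction, and the cause of the other changes was not tested. Leaving out bins listed at 0 and leaving out the 5 baits with the most contacts (added after the data were seen) moved none of them. Taking baits named for members alone removed 0 original baits, and the minimum of 10 kb removed 0 extended contacts, so the values they left in place, counted among the 43, say nothing about stability. Of the 10 named score differences, 9 had a value with the extended baits. Of these, 0 changed sign, 8 gave the same calls, and Ints13-207 was then called in both cell types. The Hnrnpr-209 contact had no value there.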

Other observations

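Contacts between chromosomes were left out above. Member baits had 3 of them among the original baits, all called in pre-granulosa cells and listed at 0 in Sertoli cells: Sf3b1-201 with a bin of chromosome 9 at 5.40, Eif2a-201 with a bin of chromosome 6 at 6.996 and Sf3b3-201 with a bin of chromosome 3 at 6.45. Over all baits of chromosomes 1 to 9, 235 of 269 such contacts were called in pre-granulosa cells. The extended table had 1 for members, of Sf3b1-201 with the same bin, at 5.49.

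Several extended baits of members not yet described held wide sets of contacts. The bin that Eif5b, for the factor that joins the ribosomal subunits, shares with Txndc9 scored 17.97 in Sertoli and 11.2 in pre-granulosa cells with the promoter of Mrpl30, a mitochondrial ribosomal protein gene, at -108.9 kb, and 15.5 and 6.97 with that of Rev1 at 126.9 kb. Rbm38, for an RNA-binding protein induced by p53, contacted a bin at 54.4 kb with 27.5 and 9.99 and its touching neighbour at 59.8 kb with 17.8 and 10.6. Rbm8a, for a core protein of the exon junction complex, scored 23.1 and 17.9 with the promoter bin of Polr3gl and Ankrd34a at -33.7 kb. Ddx54, which shares its bin with Rita1, scored 21.4 and 17.6 with Plbd2-201 at -106.9 kb. These examples were chosen after their values were seen.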
